A study of Homo sapiens with 8 samples.

Results

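The genes described are the cytosolic and mitochondrial heat shock chaperones, their co-chaperones and the factors HSF1 and HSF2 that regulate them. They were chosen by name, 54 genes of the 62086 in the count table, and 54 of 54 were found and passed the filter on low counts, which left 20165 genes. The RNA sequencing compared hESCs (human embryonic stem cells) of the line BG01, grown in mTeSR medium and exposed for 12 or 24 h to anti-M8nAb, at 5 µg/mL, or to normal mouse IgG as the isotype control, also at 5 µg/mL. Anti-M8nAb is an antibody that neutralizes MFG-e8, a secreted glycoprotein. Each of the 4 groups (IgG 12 h, anti-M8nAb 12 h, IgG 24 h and anti-M8nAb 24 h) had 2 libraries, 8 in all, from 1 cell line. The labels number them as biological replicates but do not say that they came from separate cultures, so p-values measure only the spread between these libraries.

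Chaperones of the HSP70 family bind short greasy stretches of unfolded proteins and release them in a cycle driven by ATP. J proteins start that cycle, and the HSP110 and BAG proteins end it by exchanging the nucleotide. HSP90 acts later, on signalling proteins such as kinases and steroid receptors, with a set of co-chaperones, while the ring-shaped chaperonins TRiC (cytosol) and HSP60 with HSP10 (mitochondria) enclose a protein while it folds. Under heat or other protein damage HSF1 binds heat shock elements, inverted repeats of the letters GAA, in front of many of these genes. Pluripotent stem cells are known for a high constitutive level of several chaperones.

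Depth was 21010400 to 21792716 counts over genes in a library. Levels are given in CPM (counts divided by the TMM-scaled library size) and differences as log2 fold changes of anti-M8nAb against IgG at the same time, with the standard error (SE). A gene was called where its adjusted p was under 0.05 over all 20165 genes. All 14 pluripotency markers, POU5F1 among them, passed the filter. They summed to 8602 and 8760 CPM in IgG and 9768 and 9640 CPM in anti-M8nAb at 12 h. At 24 h they summed to 7754 and 7698 CPM against 8380 and 8097 CPM. Of these 14, 9 were called higher and 0 lower at 12 h, where 4 lay below IgG without a call. At 24 h 4 were called higher and 3 lower. Blood markers summed to at most 1.61 CPM and mesendoderm markers to at most 5.995 CPM. Fibroblast or mesenchymal markers summed to 648 and 648 CPM in IgG and 819 and 788 CPM in anti-M8nAb at 12 h, and to 751 and 786 CPM against 1288 and 1320 CPM at 24 h. Of the 10 markers of that list 7 were tested, and 3 rose and 1 fell at each time, with TAGLN the most abundant in anti-M8nAb at 24 h, while DCN, LUM, FAP and COL3A1 stayed below 1 CPM in every group mean and FAP was at 0 in both IgG groups. Markers of neural progenitors, nearly all NES, summed to 182 and 186 CPM in IgG and 219 and 199 CPM in anti-M8nAb at 12 h, and to 172 and 179.7 CPM against 258 and 233 CPM at 24 h (of 7 markers 4 were tested, and 3 rose and 1 fell at 12 h, 1 rose and 1 fell at 24 h). Markers of trophoblast or amnion summed to 16.9 to 21.1 CPM (3 tested). All 993 pseudogenes tested summed to 3518 and 5221 CPM at 12 h in anti-M8nAb and to between 2397 and 2791 CPM in the other 6. The part of any of these shifts in the results below was not tested. In bulk RNA a change in the number of cells of a type and a change in RNA per cell cannot be told apart.

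The promoters are shown early because HSF1 is 1 of the 54 genes and many of the others are its known targets. In the RefSeq promoter windows (GRCh38.p14, 250 bases before to 50 after each gene's start), 47 of the 54 genes were matched. An element of 3 alternating units, GAANNTTCNNGAA or, on the other strand, TTCNNGAANNTTC, was found in the windows of 7 of these 47 genes (14.9%) and of 0.608% of all 27305 genes with a window. The 2-unit form GAANNTTC, which the longer element contains, was in 34.0% of the matched chaperone genes and 8.21% of all genes, and TTCNNGAA, also contained in it, in 25.5% and 9.46%. No window was in the table for HSF1, HSPA14, CRYAB, FKBP4, STUB1, CCT6A and PFDN2. The 3-unit elements are printed with 29 bases each, 5′ to 3′ on the strand of the gene, with the element in capitals. HSPD1 and CHORDC1 hold overlapping copies, so that their capitals run longer.
HSPA8 (chr11:123062171-123062199, minus strand): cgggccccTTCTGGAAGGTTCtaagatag
HSPA8 (chr11:123062346-123062374, minus strand): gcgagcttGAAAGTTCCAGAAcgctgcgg
HSP90AA1 (chr14:102087112-102087140, minus strand): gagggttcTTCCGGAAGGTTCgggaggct
HSP90AB1 (chr6:44247770-44247798, plus strand): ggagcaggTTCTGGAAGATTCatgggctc
HSP90AB1 (chr6:44247823-44247851, plus strand): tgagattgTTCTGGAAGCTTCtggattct
HSPD1 (chr2:197500062-197500090, minus strand): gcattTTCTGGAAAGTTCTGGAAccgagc
DNAJA1 (chr9:33025268-33025296, plus strand): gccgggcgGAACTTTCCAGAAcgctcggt
DNAJB6 (chr7:157336865-157336893, plus strand): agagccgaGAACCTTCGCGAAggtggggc
CHORDC1 (chr11:90223084-90223112, minus strand): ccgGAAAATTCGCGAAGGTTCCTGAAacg
These matches are letters in a window and not measured binding. The search took exact letters, so an element with a changed letter in a unit was not found. By that search HSPA1A, HSPA1B and HSPB8 hold only the 2-unit form, and their sequences are given with their values.

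At 12 h of anti-M8nAb, 6 of the 54 genes rose and 14 fell, which is 37.0% called, where 32.2% of all genes tested were called (15.8% higher and 16.4% lower). At 24 h, 15 rose and 13 fell, 51.9% called against 42.5% of all genes (21.2% higher and 21.3% lower). The chaperone genes are mostly abundant, and among genes with a mean of at least 10 CPM the called shares were 42.5% at 12 h and 54.9% at 24 h, above the 37.7% and 52.8% of the 53 chaperone genes at that level. The share called was therefore near that of other genes at both times. The changes were small. The sizes of the log2 changes had medians of 0.12 (12 h) and 0.15 (24 h), against 0.26 and 0.32 over all genes. Among genes with a mean of at least 10 CPM the medians were 0.17 and 0.23, against 0.12 and 0.14 for the 53 chaperone genes at that level. Of these 10687 genes, 105 were called higher and 111 lower past a log2 fold change of 1 in size at 12 h, and 164 and 202 at 24 h. Past a log2 fold change of 1 in size as well, no member was called at 12 h by edgeR or by DESeq2, and HSPB8 alone at 24 h by both, where 6.37% (3.40% higher and 2.97% lower) and 9.60% (4.76% higher and 4.84% lower) of all genes passed.

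The direction was mixed in both comparisons, which have no library in common. Signed, the median was -0.03 (12 h) and 0.06 (24 h) on the log2 scale, and 0.00 over all genes at both times. Called at both times were 6 higher genes (HSF1, HSPA1B, HSPA2, HSPA8, DNAJB4 and PFDN1) and 8 lower genes (TRAP1, DNAJA2, DNAJB6, BAG2, FKBP4, FKBP5, PTGES3 and CDC37), where 10.1% of all genes were called higher and 10.7% lower at both. No member was called in opposite directions by edgeR or by DESeq2, where 0.808% of all genes were called so by edgeR. At an unadjusted p under 0.05, 2 members stood in opposite directions, and the share of all genes was not counted at that threshold. The groups did not overlap for 12 genes above and 24 below IgG at 12 h and for 19 above and 20 below at 24 h, where 32.9%, 33.3%, 34.8% and 34.2% of all genes lay so. The counts of called genes depended on the scale. On the FPKM (fragments scaled by gene length and depth) of the authors, limma on log2(FPKM + 1) tested 53 of the 54 and called 2 genes above IgG and 16 below it at 12 h, then 7 above and 15 below at 24 h. At 12 h the counts fell to 2 higher and 8 lower without IgG replicate 2 and to 3 higher and 9 lower without anti-M8nAb replicate 1.

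**Figure D1:**
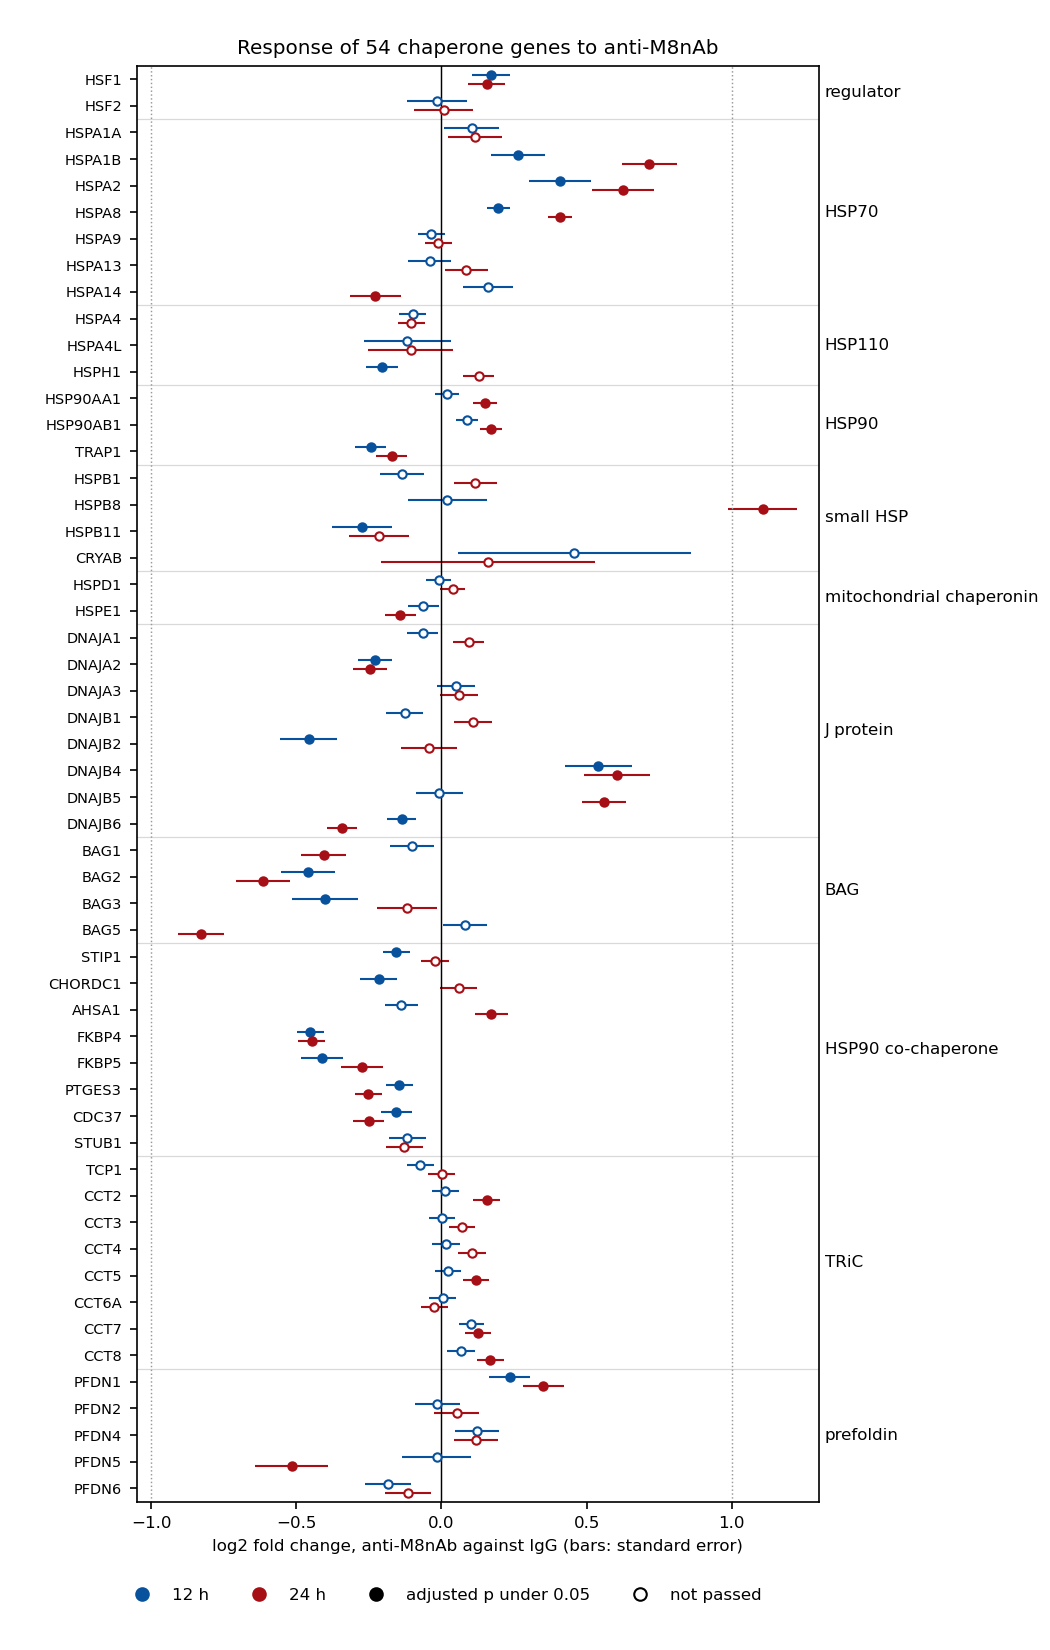
Log2 fold change of anti-M8nAb against IgG (x axis) for the 54 genes, grouped by role, at 12 h (blue) and 24 h (red), with bars for the standard error. Filled points passed an adjusted p of 0.05, and the dotted lines mark a log2 fold change of 1 in size, which HSPB8 passed at 24 h.

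The regulators moved little. HSF1, the master factor of the heat shock response (chromosome 8, mean level 17.0 FPKM), was at 85.0 and 83.7 CPM in IgG and at 93.2 and 96.5 CPM in anti-M8nAb at 12 h, and at 86.3 and 86.1 CPM against 99.1 and 92.9 CPM at 24 h. Both anti-M8nAb libraries lay above both IgG libraries at each time, by 0.17 on the log2 scale (SE 0.06, adjusted p = 0.0389) at 12 h and 0.16 (SE 0.06, adjusted p = 0.0474) at 24 h. Neither HSF1 call was firm: the adjusted p at 12 h was 0.079 to 0.215 without any 1 of the 4 libraries of that time, that at 24 h was 0.0558 to 0.30 without any 1 library but anti-M8nAb 24 h replicate 2, and DESeq2 gave 0.0555 and 0.0676. HSF2, a related factor, was at 26.5 and 23.6 CPM in IgG and 24.6 and 25.1 CPM in anti-M8nAb at 12 h. At 24 h HSF2 was at 27.4 and 25.3 CPM against 25.1 and 27.9 CPM. The HSF2 groups overlapped each time, and the log2 fold changes were -0.01 (SE 0.10) and 0.01 (SE 0.10).

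Of the 7 genes of the HSP70 family 3 rose at 12 h, where 15.8% of all genes were higher. At 24 h the same 3 rose and HSPA14 fell, where 21.2% of all genes were higher and 21.3% lower. HSPA1A, HSPA9 and HSPA13 did not pass at either time. HSPA8 encodes the constitutive HSC70 of the cytosol and was the most abundant of the 7 per length, at a mean of 504 FPKM (chr11:123057489-123063230, minus strand, GRCh38). It was at 2733 and 2724 CPM in IgG and 3227 and 3025 CPM in anti-M8nAb at 12 h, and at 1740.2 and 1682 CPM against 2345 and 2195 CPM at 24 h. The anti-M8nAb libraries were higher at both times, and all 4 libraries at 24 h were below those at 12 h. The HSPA8 response was 0.20 (SE 0.04, adjusted p = 0.000162) at 12 h and 0.41 (SE 0.04, adjusted p = 2.38e-11) at 24 h on the log2 scale. The 12 h call of HSPA8 was lost on the FPKM scale (adjusted p = 0.0622). An unnamed gene on the other strand, ENSG00000288061, overlaps 11.4% of its exon sequence.

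HSPA1A and HSPA1B encode the stress-inducible HSP70 and lie next to each other on chromosome 6. HSPA1B rose from 47.9 and 42.5 CPM in IgG to 58.0 and 50.6 CPM in anti-M8nAb at 12 h, by 0.26 on the log2 scale (SE 0.09, adjusted p = 0.0245). At 24 h HSPA1B stood at 30.9 and 31.1 CPM in IgG and at 57.4 and 44.4 CPM in anti-M8nAb, 0.72 (SE 0.10, adjusted p = 3.55e-08). The level of HSPA1B in IgG was lower at 24 h than at 12 h, and the anti-M8nAb libraries at 24 h lay within the range of the 12 h libraries. Its 12 h call was lost without IgG replicate 2 (0.19, adjusted p = 0.272) and without anti-M8nAb replicate 1 (0.16, adjusted p = 0.287), and DESeq2 gave an adjusted p of 0.081 for HSPA1B at 12 h. HSPA1A was at 43.3 and 39.4 CPM in IgG and 49.7 and 39.2 CPM in anti-M8nAb at 12 h, and at 42.5 and 43.2 CPM against 50.2 and 42.6 CPM at 24 h. The HSPA1A groups overlapped each time, and the log2 fold changes were 0.10 (SE 0.09) and 0.12 (SE 0.09).

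The separate values of this pair are uncertain because the genes are nearly identical. Of the 100-base stretches of the HSPA1A transcript 72.4% occur unchanged in that of HSPA1B, and none in HSPA8 or HSPA2. The unnamed gene ENSG00000285565 on the same strand also covers 36.6% of the exon sequence of HSPA1B. Summed, the pair differed on the log2 scale by 0.19 (SE 0.08, adjusted p = 0.0557) at 12 h and 0.40 (SE 0.08, adjusted p = 4.93e-05) at 24 h. The rise at 24 h passed for the sum and that at 12 h did not. The pair shares its promoter sequence too: over the 68 bases around the 2-unit element (capitals), 66 were identical.
HSPA1A (chr6:31815407-31815474, plus strand): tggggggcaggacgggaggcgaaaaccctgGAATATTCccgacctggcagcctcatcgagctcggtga
HSPA1B (chr6:31827603-31827670, plus strand): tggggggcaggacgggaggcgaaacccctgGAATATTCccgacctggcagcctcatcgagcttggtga

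HSPA2, an HSP70 best known from the testis, was at 26.9 and 24.0 CPM in IgG and 37.9 and 29.7 CPM in anti-M8nAb at 12 h, and at 27.4 and 22.2 CPM against 40.3 and 36.3 CPM at 24 h. It stood higher in every anti-M8nAb library, by 0.41 (SE 0.11, adjusted p = 0.00279) and 0.63 (SE 0.11, adjusted p = 5e-06) on the log2 scale. Without anti-M8nAb replicate 1 the 12 h value of HSPA2 was 0.22 (adjusted p = 0.20) and without IgG replicate 2 it was 0.34 (adjusted p = 0.0695), and on the FPKM scale 0.29 (adjusted p = 0.137). HSPA14, which acts with a J protein at the ribosome, fell at 24 h by 0.23 on the log2 scale (SE 0.09, adjusted p = 0.0306) after 0.16 (SE 0.09) at 12 h. The HSPA14 call was lost without IgG replicate 1 (adjusted p = 0.185), anti-M8nAb replicate 1 (adjusted p = 0.0787) or anti-M8nAb replicate 2 (adjusted p = 0.122). HSPA14 also shares 12.7% of its exon sequence with MSANTD7, whose log2 fold change at 24 h was -0.42 (adjusted p = 0.00125). HSPA9, the mitochondrial HSP70 (mortalin), stood at -0.04 (SE 0.05) and -0.01 (SE 0.05). Summed over the 7 genes, of which HSPA8 holds most, the level in anti-M8nAb was 1.11 times that in IgG at 12 h and 1.24 times at 24 h.

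**Figure D2:**
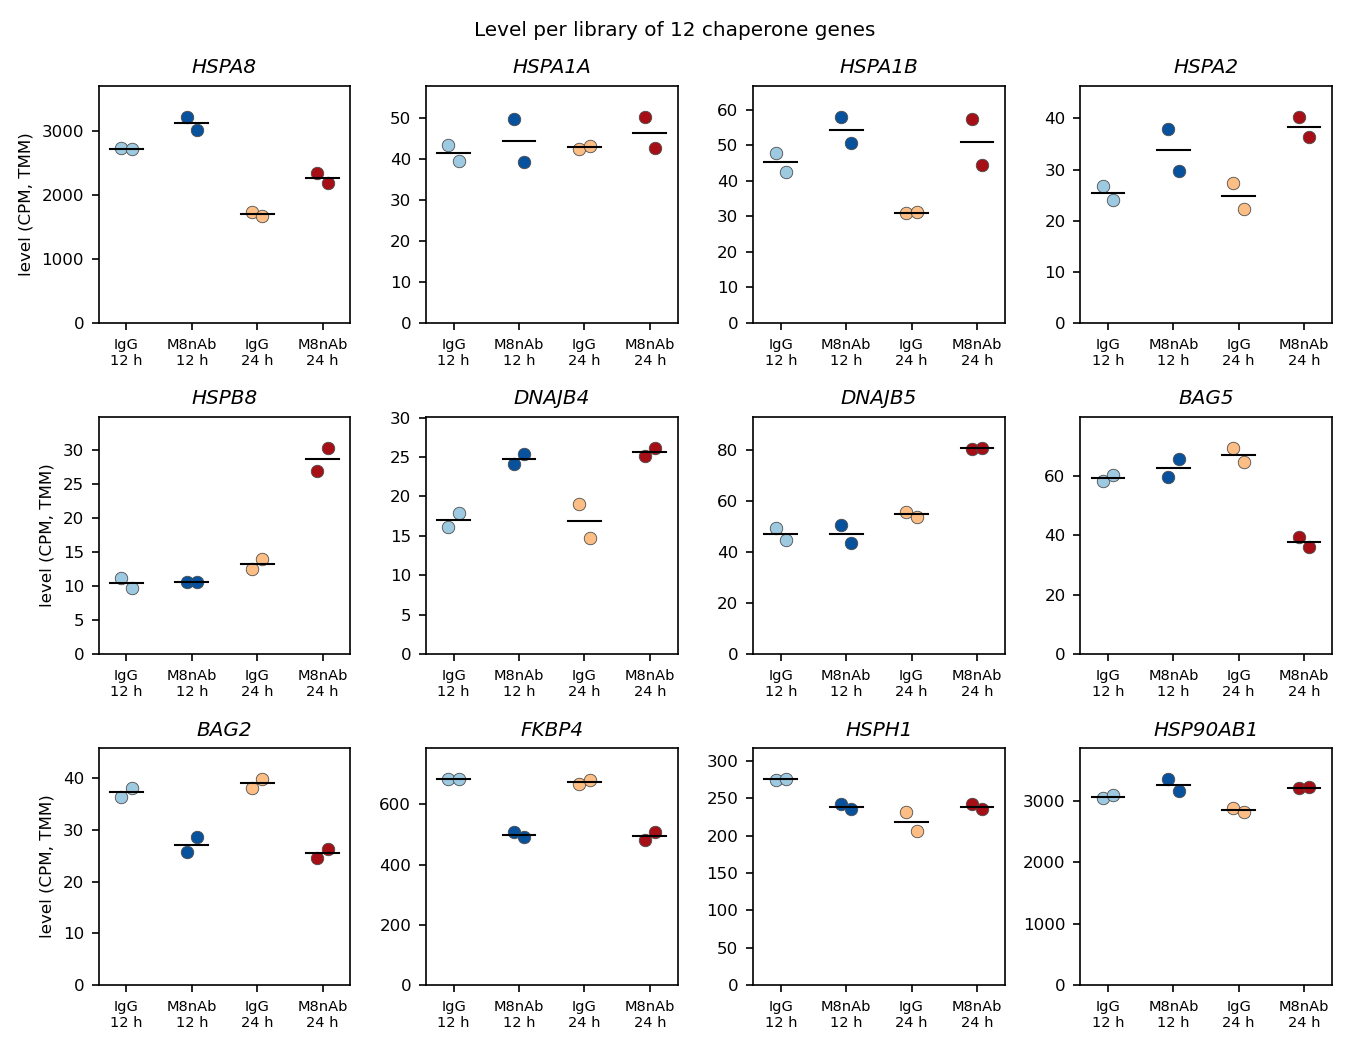
Level of 12 of the genes in CPM (y axes, from 0) in each library, with a bar at the group mean, for IgG and anti-M8nAb at 12 h and 24 h (2 libraries each). HSPB8 at 26.9 and 30.3 CPM and BAG5 at 39.3 and 36.2 CPM stand apart in anti-M8nAb at 24 h, while FKBP4 and BAG2 are lower in anti-M8nAb at both times.

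The HSP110 proteins exchange the nucleotide of HSP70, and 1 of 3 fell at 12 h, where 16.4% of all genes were lower. At 24 h none was called by edgeR, which called 42.5% of all genes, or by DESeq2. At an unadjusted p under 0.05, 1 of the 3 was higher and 1 lower at 24 h. HSPH1, the heat-inducible member, was at 274 and 276 CPM in IgG and 242 and 235 CPM in anti-M8nAb at 12 h. At 24 h the order turned, with 231 and 206 CPM in IgG against 242 and 235 CPM. The HSPH1 values were -0.20 (SE 0.05, adjusted p = 0.00283) at 12 h and 0.13 (SE 0.05, adjusted p = 0.0544) at 24 h, and its 12 h call was lost without IgG replicate 2 (-0.19, adjusted p = 0.0535). HSPA4, the most abundant of the group at 114 FPKM, was at 597 and 596 CPM in IgG and 563 and 551 CPM in anti-M8nAb at 12 h, and at 627 and 573 CPM against 556 and 562 CPM at 24 h. Both anti-M8nAb libraries lay below IgG each time, and neither difference passed (-0.10, SE 0.05, both times).

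HSP90 genes rose slightly at 24 h in the cytosolic forms and fell in the mitochondrial one. HSP90AB1, the constitutive cytosolic form, had the highest level per length of all 54 genes, a mean of 1038 FPKM. It was at 3044 and 3094 CPM in IgG and 3361 and 3161 CPM in anti-M8nAb at 12 h, and at 2892 and 2819 CPM against 3208 and 3221 CPM at 24 h. The groups did not overlap, and the difference passed only at 24 h, at 0.17 (SE 0.04, adjusted p = 0.000291), after 0.09 (SE 0.04, adjusted p = 0.0749) at 12 h. The responses of HSP90AB1 at the 2 times did not differ beyond their error (difference 0.08, SE 0.05, adjusted p = 0.361). HSP90AA1, the inducible form, rose at 24 h by 0.15 (SE 0.04, adjusted p = 0.00254), a call lost without IgG replicate 2 (0.09, adjusted p = 0.113). On the FPKM scale neither HSP90AB1 (0.08, adjusted p = 0.084) nor HSP90AA1 (0.06, adjusted p = 0.278) passed at 24 h. TRAP1, the mitochondrial HSP90, fell at both times, at -0.24 (SE 0.05, adjusted p = 0.000364) and -0.17 (SE 0.05, adjusted p = 0.00827), with 28.5% of its exon sequence overlapped by DNASE1 on the other strand. Its 24 h call was lost without IgG replicate 2 (-0.12, adjusted p = 0.113) or anti-M8nAb replicate 2 (-0.16, adjusted p = 0.063).

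Small heat shock proteins hold unfolded proteins without using ATP. HSPB8, which works with BAG3 in the disposal of damaged proteins, made the largest change among the 54 genes (chr12:119171555-119224855, plus strand). It was at 11.1 and 9.66 CPM in IgG and 10.5 and 10.6 CPM in anti-M8nAb at 12 h, where the groups overlapped. At 24 h HSPB8 stood at 12.5 and 14.01 CPM in IgG and at 26.9 and 30.3 CPM in anti-M8nAb, well apart. The fold of HSPB8 was 1.01 at 12 h (log2 0.02, SE 0.13) and 2.15 at 24 h (log2 1.11, SE 0.12, adjusted p = 2.13e-10), and the 24 h value ranged from 0.86 to 1.19 on the log2 scale over the alternatives tried. The RefSeq promoter window of HSPB8 holds GAATATTC, the same letters as in HSPA1B and in HSPA1A, which passed at neither time. The form GAANNTTC was in the windows of 16 of the 47 matched genes, some of which rose, some fell and some were not called. Its part in the HSPB8 response was not tested. The letters are in capitals here.
HSPB8 (chr12:119178813-119178880, plus strand): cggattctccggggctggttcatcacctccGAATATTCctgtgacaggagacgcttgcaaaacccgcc
HSPB1 (HSP27), the most abundant small heat shock gene at 46.6 FPKM, was at 77.6 and 73.1 CPM in IgG and 65.7 and 71.5 CPM in anti-M8nAb at 12 h, and at 69.3 and 83.1 CPM against 79.5 and 85.6 CPM at 24 h. Its differences, -0.14 (SE 0.08) and 0.12 (SE 0.07), did not pass. HSPB11, annotated as the intraflagellar transport gene IFT25, fell at 12 h (-0.27, SE 0.10, adjusted p = 0.0368), a call lost without IgG replicate 1 (adjusted p = 0.44) or anti-M8nAb replicate 1 (adjusted p = 0.285), and in DESeq2 (adjusted p = 0.0848). CRYAB, the alpha B crystallin, was at only 0.876 to 2.00 CPM in the 8 libraries, with log2 fold changes of 0.46 (SE 0.40) and 0.16 (SE 0.37).

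The mitochondrial chaperonin was nearly level. HSPD1 (HSP60) was at 1489 and 1502 CPM in IgG and 1519 and 1452 CPM in anti-M8nAb at 12 h, and at 1461 and 1338 CPM against 1419 and 1456 CPM at 24 h. The HSPD1 libraries overlapped at both times (-0.01, SE 0.04, and 0.04, SE 0.04). HSPE1 (HSP10) stood at -0.06 (SE 0.05) at 12 h and -0.14 (SE 0.05, adjusted p = 0.0289) at 24 h. The HSPE1 call was lost without anti-M8nAb replicate 1 (-0.07, adjusted p = 0.415) or IgG replicate 2 (-0.13, adjusted p = 0.0948). HSPE1-MOB4 on the same strand covers 10.5% of the HSPE1 exon sequence.

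J proteins bring clients to HSP70 and stimulate its ATPase. Of 8, 1 rose and 3 fell at 12 h, where 15.8% of all genes were higher and 16.4% lower. At 24 h 2 rose and 2 fell, where 21.2% of all genes were higher and 21.3% lower. DNAJB4 was at 16.2 and 17.9 CPM in IgG and 24.1 and 25.4 CPM in anti-M8nAb at 12 h, and at 19.0 and 14.7 CPM against 25.1 and 26.2 CPM at 24 h. Every anti-M8nAb library exceeded every IgG library, by 0.54 (SE 0.12, adjusted p = 0.000244) and 0.60 (SE 0.11, adjusted p = 2.71e-05). DNAJB5, a relative of DNAJB4, was at 49.6 and 44.8 CPM in IgG and 50.6 and 43.5 CPM in anti-M8nAb at 12 h. At 24 h DNAJB5 was at 55.6 and 53.96 CPM against 80.6 and 80.9 CPM, a fold of 1.47 (log2 0.56, SE 0.08, adjusted p = 6.77e-08) after an overlap at 12 h (-0.01, SE 0.08). DNAJA1, the most abundant J protein gene at 106 FPKM, was at 331 and 332 CPM in IgG and 324 and 310.1 CPM in anti-M8nAb at 12 h, and at 243 and 232 CPM against 265 and 242 CPM at 24 h. Neither difference of DNAJA1 passed (-0.07, SE 0.05, and 0.09, SE 0.05), although all of its 24 h libraries were below those at 12 h. DNAJB1, the main inducible partner of HSPA1A, did not pass either (-0.13, SE 0.06, and 0.11, SE 0.07).

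The J proteins that fell were DNAJA2, DNAJB2 and DNAJB6. DNAJA2 fell, at -0.23 (SE 0.06, adjusted p = 0.00198) at 12 h, then -0.25 (SE 0.06, adjusted p = 0.000658), and kept both calls in every alternative tried but the one that also requires a log2 fold change of 1. DNAJB6, known for suppressing polyglutamine aggregates, fell, at -0.14 (SE 0.05, adjusted p = 0.0342) at 12 h and -0.34 (SE 0.05, adjusted p = 4.46e-07) at 24 h. Its 12 h call was lost without IgG replicate 1 (adjusted p = 0.192), IgG replicate 2 (adjusted p = 0.182) or anti-M8nAb replicate 1 (adjusted p = 0.356), and with the counts of its pseudogenes added (adjusted p = 0.0708). DNAJB6P1, 1 of those pseudogenes, rose by 1.04 (adjusted p = 0.000428) at 12 h. DNAJB2, a J protein enriched in neurons, was called only at 12 h (-0.46, SE 0.10, adjusted p = 0.000284) and stood at -0.04 (SE 0.10) at 24 h.

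BAG proteins bind the ATPase domain of HSP70. None of the 4 was called higher at either time by edgeR or by DESeq2, or at an unadjusted p under 0.05. At 12 h 2 fell and at 24 h 3 fell, where 16.4% and 21.3% of all genes were lower. BAG5, which carries several BAG domains (chr14:103556545-103562657, minus strand), was at 58.4 and 60.2 CPM in IgG and 59.6 and 65.7 CPM in anti-M8nAb at 12 h. At 24 h BAG5 was at 69.4 and 64.6 CPM in IgG and at 39.3 and 36.2 CPM in anti-M8nAb, the lowest 2 of the 8 libraries. The log2 fold change of BAG5 was 0.08 (SE 0.08) at 12 h and -0.83 (SE 0.08, adjusted p = 5.76e-12) at 24 h, 0.563 times the IgG level. It was the largest fall among the 54 genes.

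BAG2, which restrains the ubiquitin ligase STUB1, fell at both times. BAG2 was at 36.5 and 38.1 CPM in IgG and 25.7 and 28.6 CPM in anti-M8nAb at 12 h, and at 38.2 and 39.9 CPM against 24.7 and 26.3 CPM at 24 h. The groups were well apart, at -0.46 (SE 0.09, adjusted p = 0.000125) and -0.62 (SE 0.09, adjusted p = 5.32e-07). Of the BAG2 exon sequence 44.2% is overlapped by RAB23 and ZNF451-AS1 on the other strand. RAB23 stood at 0.16 (adjusted p = 0.208) and -0.19 (adjusted p = 0.125), and ZNF451-AS1 at 0.21 (adjusted p = 0.241) and -0.33 (adjusted p = 0.0382). BAG3, itself a heat shock gene, fell at 12 h (-0.40, SE 0.11, adjusted p = 0.00512) and stood at -0.12 (SE 0.10) at 24 h, with no difference between the times past the threshold (0.28, SE 0.15, adjusted p = 0.256). The 12 h call of BAG3 was lost without IgG replicate 1 (adjusted p = 0.0524) or anti-M8nAb replicate 1 (adjusted p = 0.0882). BAG1 fell at 24 h (-0.41, SE 0.08, adjusted p = 3.29e-05) after -0.10 at 12 h, and the difference between the times did not pass (-0.30, SE 0.11, adjusted p = 0.0574). Summed over the 4 genes, the level was 181 and 187 CPM in IgG against 162 and 175 CPM at 12 h and 195 and 196 CPM against 139.8 and 131 CPM at 24 h, a ratio of 0.691.

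Many of the co-chaperones of HSP90 fell. Of 8, 6 fell and none rose at 12 h by edgeR and by DESeq2, with 7 lower and none higher at an unadjusted p under 0.05, and at 24 h 4 fell and 1 rose, where 16.4% and 21.3% of all genes were lower. FKBP4 (chr12:2794970-2805423, plus strand), an immunophilin of the steroid receptor complexes, had the smallest adjusted p of the 54 genes at 12 h, and its values in every library are given after that was seen. It was at 685 and 683 CPM in IgG and 509 and 491 CPM in anti-M8nAb at 12 h, and at 666 and 681 CPM against 480.2 and 508 CPM at 24 h. The 4 anti-M8nAb libraries of FKBP4 lay well below the 4 IgG libraries, at -0.45 (SE 0.05, adjusted p = 8.35e-11) and -0.45 (SE 0.05, adjusted p = 5.61e-11), with a difference between the times of 0.01 (SE 0.07). FKBP5, its close relative and a known target of glucocorticoids, fell, at -0.41 (SE 0.07, adjusted p = 1.44e-05) and -0.27 (SE 0.07, adjusted p = 0.00173). Genes on the other strand overlap 11.4% of the FKBP4 exon sequence.

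PTGES3 (p23), which stabilizes the closed form of HSP90, was the most abundant co-chaperone at 229 FPKM. PTGES3 was at 842 and 820.4 CPM in IgG and 750.0 and 754 CPM in anti-M8nAb at 12 h, and at 866 and 801 CPM against 677 and 723 CPM at 24 h. It was lower in every anti-M8nAb library, at -0.14 (SE 0.05, adjusted p = 0.0128) and -0.25 (SE 0.05, adjusted p = 1.56e-05). CDC37, which brings kinases to HSP90, fell, at -0.16 (SE 0.05, adjusted p = 0.0204) and -0.25 (SE 0.05, adjusted p = 0.000149). The 12 h calls were lost without IgG replicate 1 for PTGES3 (adjusted p = 0.172) and CDC37 (adjusted p = 0.12) and without IgG replicate 2 for PTGES3 (adjusted p = 0.0726) and CDC37 (adjusted p = 0.166). For CDC37 they were also lost without anti-M8nAb replicate 1 (adjusted p = 0.0697) or 2 (adjusted p = 0.139).

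STIP1 (HOP), the bridge between HSP70 and HSP90, and CHORDC1 fell at 12 h, at -0.16 (SE 0.05, adjusted p = 0.00999) and -0.22 (SE 0.06, adjusted p = 0.00754). At 24 h they stood at -0.02 and 0.06, and the difference between the times did not pass for STIP1 (0.13, SE 0.07, adjusted p = 0.21) and did for CHORDC1 (0.28, SE 0.09, adjusted p = 0.0366). Without IgG replicate 2 neither STIP1 (adjusted p = 0.241) nor CHORDC1 (adjusted p = 0.197) passed, nor did STIP1 without anti-M8nAb replicate 2 (adjusted p = 0.163) or CHORDC1 without anti-M8nAb replicate 1 (adjusted p = 0.0697). AHSA1, the activator of the HSP90 ATPase, was at 171 and 163 CPM in IgG and 154 and 149 CPM in anti-M8nAb at 12 h. At 24 h AHSA1 was at 148 and 152 CPM against 170.1 and 168 CPM, so that its groups stood in opposite order at the 2 times, with -0.14 (SE 0.06, adjusted p = 0.054) and 0.17 (SE 0.06, adjusted p = 0.0111). The 24 h call of AHSA1 was lost without IgG replicate 1 (adjusted p = 0.0737) or anti-M8nAb replicate 1 (adjusted p = 0.0569) and on the FPKM scale (adjusted p = 0.157). STUB1, the ubiquitin ligase CHIP, did not pass (-0.12, SE 0.06, and -0.13, SE 0.06), and JMJD8 on the other strand overlaps 42.5% of its exon sequence. Summed over the 8 co-chaperones, the level was 2705 and 2705 CPM in IgG against 2328 and 2291 CPM at 12 h and 2634 and 2589 CPM against 2218 and 2299 CPM at 24 h, ratios of 0.854 and 0.865.

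**Figure D3:**
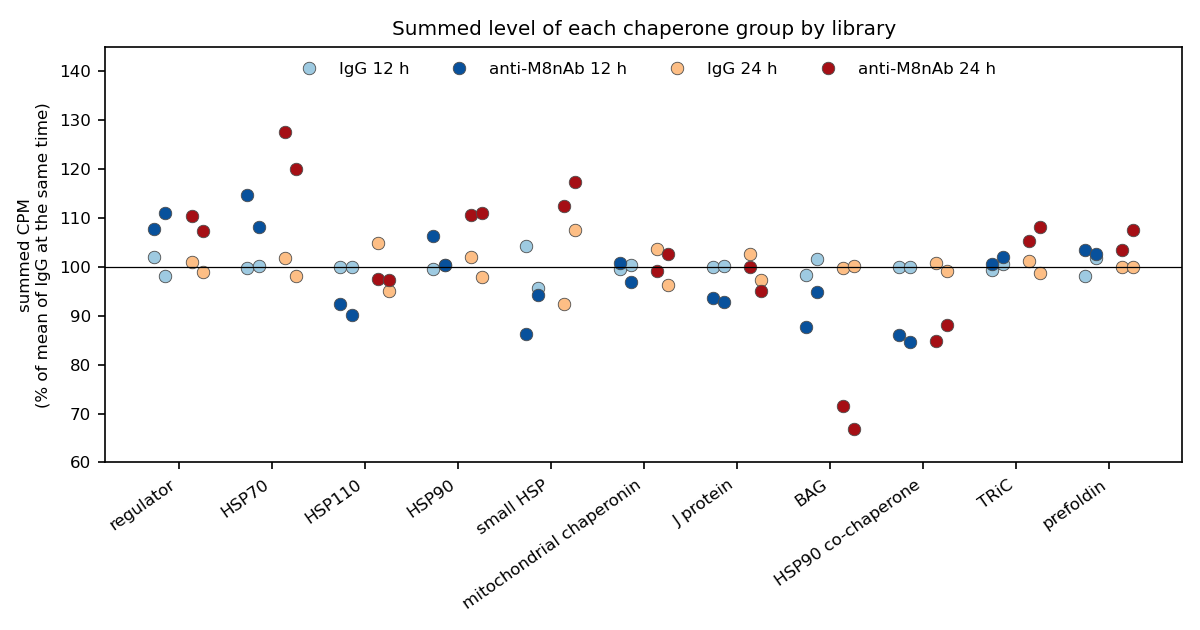
Summed CPM of each chaperone group in each library, as a percentage of the mean of the 2 IgG libraries of the same time (y axis, not starting at 0), for IgG and anti-M8nAb at 12 h and 24 h. The BAG group lies at 71.5 and 66.8% in anti-M8nAb at 24 h, the HSP90 co-chaperones between 84.7 and 88.1% at both times, and the HSP70 group between 108 and 128%.

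TRiC folds actin, tubulin and other proteins, and its 8 subunit genes moved within a narrow range, from -0.07 to 0.10 on the log2 scale at 12 h and from -0.02 to 0.17 at 24 h. At 12 h none of the 8 passed in edgeR, where 32.2% of all genes did, with 1 at an unadjusted p under 0.05 and 1 called by DESeq2. At 24 h 4 of the 8 rose, where 21.2% of all genes were higher. They were CCT2 (0.16), CCT5 (0.12), CCT7 (0.13) and CCT8 (0.17), each with a SE of 0.04 or 0.05. None of the 4 passed on the FPKM scale. Of the CCT5 exon sequence 30.8% is overlapped by ENSG00000271980 on the other strand. CCT7, the most abundant at 185 FPKM, was at 651 and 657 CPM in IgG and 696 and 709 CPM in anti-M8nAb at 12 h, and at 619 and 621 CPM against 682 and 672 CPM at 24 h. It was higher in every anti-M8nAb library, with an adjusted p of 0.0689 at 12 h and 0.0177 at 24 h. Without IgG replicate 1 at 24 h the adjusted p was 0.072 for CCT7 and 0.0756 for CCT5, and without IgG replicate 2 it was 0.0747 for CCT2 and 0.0721 for CCT8. Other libraries lost these calls too: without anti-M8nAb replicate 2 the adjusted p was 0.0873 for CCT2, 0.219 for CCT5 and 0.0798 for CCT8, without anti-M8nAb replicate 1 it was 0.092 for CCT7, and without IgG replicate 2 it was 0.0748 for CCT5, which was lost without either 12 h IgG library as well (adjusted p = 0.066 and 0.0639).

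Prefoldin hands newly made actin and tubulin to TRiC. Of its 5 genes, PFDN1 rose at both times, by 0.24 (SE 0.07, adjusted p = 0.00858) and 0.35 (SE 0.07, adjusted p = 6.84e-05), while PFDN5 fell at 24 h alone (-0.52, SE 0.12, adjusted p = 0.000707). The 12 h call of PFDN1 was lost without IgG replicate 1 (adjusted p = 0.0554), IgG replicate 2 (adjusted p = 0.0673) or anti-M8nAb replicate 2 (adjusted p = 0.106). Of the PFDN5 exon sequence, ENSG00000288663 on the same strand covers 25.7% and MYG1-AS1 on the other 11.6%. PFDN2, the most abundant prefoldin gene at 89.0 FPKM, was at 52.5 and 56.7 CPM in IgG and 56.8 and 51.3 CPM in anti-M8nAb at 12 h, and at 54.7 and 55.9 CPM against 56.4 and 58.2 CPM at 24 h. Its groups overlapped at 12 h and differed by 0.05 (SE 0.08) at 24 h. PFDN4 and PFDN6 did not pass at either time.

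**Figure D4:**
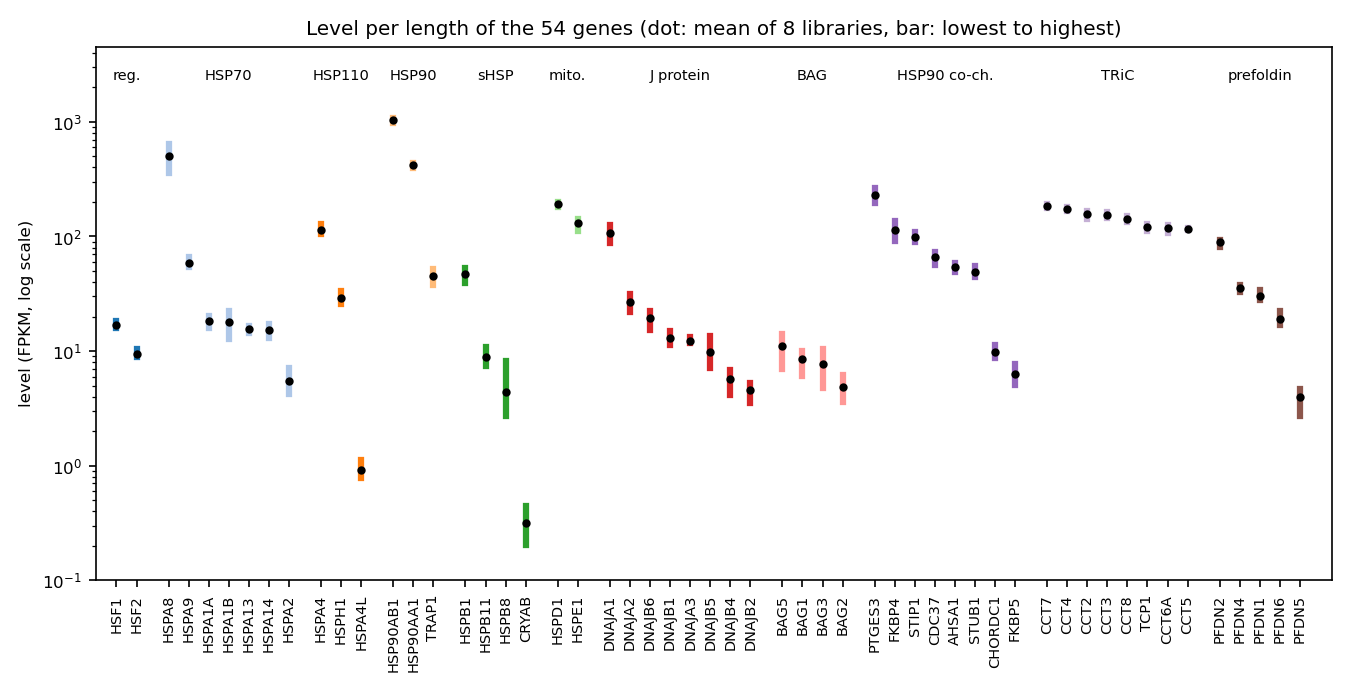
Mean level per length of the 54 genes in FPKM (y axis, log scale) over the 8 libraries, with bars from the lowest to the highest library, grouped by role (reg., regulators; sHSP, small heat shock proteins; mito., mitochondrial chaperonin). Levels run from 0.315 FPKM for CRYAB to 1038 FPKM for HSP90AB1, and the 8 TRiC genes lie between 116 and 185 FPKM.

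Whether the response differed between the times had its own contrast. Of the 54 genes 11 passed, 8 with a response further up at 24 h and 3 further down, 20.4% where 12.3% of all genes tested (5.79% up and 6.54% down) and 18.2% of genes with a mean of at least 10 CPM did. BAG5 (-0.91, SE 0.11, adjusted p = 4.04e-08), HSPB8 (1.09, SE 0.18, adjusted p = 2.47e-05), DNAJB5 (0.57, SE 0.11, adjusted p = 0.000293), HSPH1 (0.33, SE 0.08, adjusted p = 0.00212) and AHSA1 (0.31, SE 0.08, adjusted p = 0.00571) led. HSPB8, DNAJB5 and BAG5 were level at 12 h, and HSPA8 and HSPA1B were higher at both times and more so at 24 h. HSPH1 and AHSA1 went from lower to higher, with HSPH1 called only at 12 h and AHSA1 only at 24 h. The anti-M8nAb mean of HSPH1 was 239 CPM at both times, and its IgG mean went from 275 to 218 CPM. In AHSA1 the anti-M8nAb mean went from 151 to 169 CPM and the IgG mean from 167 to 150 CPM. Leaving out 1 library kept 4 of the 11 calls in all 8 fits (BAG5, HSPB8, DNAJB5 and HSPH1). The count fell to 3 up and 1 down without IgG 12 h replicate 1, to 4 up and 1 down without anti-M8nAb 12 h replicate 2, and to 4 up and 2 down without anti-M8nAb 24 h replicate 1. It was 5 up and 1 down without IgG 12 h replicate 2, 5 up and 3 down without IgG 24 h replicate 2, 6 up and 1 down without IgG 24 h replicate 1, and 7 up and 1 down without anti-M8nAb 24 h replicate 2.

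The control cells also moved with time. Between IgG at 24 h and IgG at 12 h, 1 of the 54 genes was higher and 12 were lower, 24.1% called where 13.7% of all genes (7.01% higher and 6.64% lower) and 20.0% of genes with a mean of at least 10 CPM were. HSPA8 (-0.67, SE 0.04), HSPA1B (-0.54, SE 0.10), DNAJA1 (-0.48, SE 0.05), DNAJB1 (-0.39, SE 0.06) and HSPH1 (-0.33, SE 0.05) were the furthest down, and BAG3 was up (0.50, SE 0.11). These IgG libraries are also the controls of the responses above, so the 2 kinds of value are not independent. In HSPA8 the IgG mean was 2728 ± 6.48 CPM (SD, n = 2) at 12 h and 1711 ± 41.0 CPM at 24 h, and the anti-M8nAb mean was 3126 ± 143 CPM and 2269.9 ± 107 CPM. Without IgG 12 h replicate 1 or IgG 24 h replicate 2, 7 genes were called lower with time, and without IgG 12 h replicate 2, 5 were.

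Of the 7 genes with a 3-unit heat shock element in the promoter window, HSPA8 rose and DNAJB6 and CHORDC1 fell at 12 h, where 15.8% of all genes were higher and 16.4% lower. At 24 h HSPA8, HSP90AA1 and HSP90AB1 rose and DNAJB6 fell, where 21.2% of all genes were higher and 21.3% lower. HSPD1 and DNAJA1 passed at neither time. With time in IgG 3 of the 7 were lower (HSPA8, DNAJA1 and CHORDC1), where 6.64% of all genes were. Of the 40 genes whose windows hold no exact match, 4 rose and 11 fell at 12 h, and 11 rose and 10 fell at 24 h. With time in IgG 1 of the 40 was higher and 8 were lower. The median log2 fold change of the 7 was -0.01 at 12 h and 0.09 at 24 h, and that of the 40 was -0.05 and 0.03. Elements with a changed letter were not searched for, so the 40 may hold some. HSPE1 is among the 40, although the HSPD1 element lies just before the HSPE1 start in GENCODE (chr2:197500140, plus strand). At 24 h the log2 fold changes ran from -0.34 to 0.41 in the 7 and from -0.83 to 1.11 in the 40. A range tends to widen with the number of genes, so these ranges cannot show whether the element made a difference. Its part in the responses was not tested.

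Related genes outside the 54 were taken from lists made by name. Of 50 other heat shock and co-chaperone genes 44 were tested, and 7 rose and 8 fell at 12 h (34.1% called) and 11 rose and 13 fell at 24 h (54.5%), where 32.2% and 42.5% of all genes were called. PPIF, the cyclophilin of the mitochondrial permeability pore, had the smallest adjusted p at both times (-0.67 and -0.70), DNAJC5 of synaptic vesicles fell too (-0.47 and -0.59), UBB, a ubiquitin gene, fell at 12 h (-0.29), and the ribosome-related J protein DNAJC21 rose (0.51 and 0.54), as did PDCL3, a partner of TRiC, at 24 h (0.60). Of 14 genes of mitochondrial protein quality control 3 rose and 3 fell at 12 h (42.9% called) and 3 rose and 2 fell at 24 h (35.7%). The protease AFG3L2 rose (0.43 and 0.50) and so did the disaggregase CLPB (0.37 and 0.56), while GRPEL1, the nucleotide exchange factor of HSPA9, fell (-0.27 and -0.53), and HTRA2, a protease, fell as well (-0.39 and -0.24). Of 15 chaperones of the endoplasmic reticulum 1 rose and 5 fell at 12 h (6 of 15 called), and 8 rose and 1 fell at 24 h (9 of 15), with HSPA5 (BiP, -0.17 and 0.75) and MANF (-0.16 and 0.35) called in opposite directions. DNAJB9 rose at both times (0.79 and 0.67), SDF2L1 fell at 12 h (-0.70), and PDIA4 (0.29) and MANF (0.35) rose at 24 h. Over the lists the medians were -0.01 and -0.02 for the other heat shock genes and -0.11 and 0.11 for the chaperones of the endoplasmic reticulum.

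Of the 112 pseudogenes named after 23 of the 54 genes, 18 were abundant enough to be tested. At 12 h 3 of them rose (HSPD1P1 by 0.78, HSPD1P4 by 0.91 and DNAJB6P1 by 1.04), where 15.8% of all genes were higher. Their counts in anti-M8nAb were 140 and 268, 58 and 115, and 103 and 141, in that order. In IgG they were 119 and 132, 40 and 57, and 59 and 66. FKBP4P6 fell at 12 h, where 16.4% of all genes were lower, on 11 and 9 counts in IgG against 3 and 1. At 24 h HSPA8P8 alone was called, and it rose, where 42.5% of all genes were called. The 112 summed to 28.8 and 29.0 CPM in IgG and 33.4 and 44.6 CPM in anti-M8nAb at 12 h, in the libraries where all pseudogenes were high. Against the levels of their parent genes these sums are small, and with them added to the parents, and HSPA1A and HSPA1B merged as well, which leaves 53 features, 5 were called above IgG and 13 below at 12 h, and 16 above and 13 below at 24 h. The 12 h calls missing from that fit are HSPA1B, which was merged, and DNAJB6.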

How the data were processed

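RNA was extracted with Trizol and sequenced in 8 libraries, 2 in each of 4 groups. According to the methods of the study and the labels, the authors trimmed reads with Trimmomatic (quality control with FastQC 0.11.9), aligned them with STAR to the human genome GRCh38, removed duplicates with Picard and counted reads per gene with HTSeq. Whether counting used strand is not given in the sources used here. The deposited tables hold these raw counts and FPKM values of the authors, scaled by total and gene length. In the count table, 1005 lines have no gene name and were left out; the last 5 of them hold 53.2 to 54.1% of all counts and the other 1000 hold 0.192 to 0.21%. Of each table, 4 columns match no sample and were not used.

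Counts were fitted with edgeR 4.0.16 (R 4.3.3) over all 8 libraries with group means, TMM scaling and its default filter on low counts, and tested with the quasi-likelihood F test. P-values were adjusted by Benjamini and Hochberg over 20165 genes, with a common biological coefficient of variation of 5.53%. Depth of 21010400 to 21792716 counts per library limits genes near 1 CPM. Levels between genes were compared in FPKM. Alternatives were DESeq2 1.42.0, its size factors, other filters, limma 3.58.1 on log2 FPKM with a pseudocount of 1 or 0.1 and a mean of at least 0.5 FPKM or no filter, a replicate block, protein-coding genes alone, copies summed with pseudogenes, each time alone and each library left out. The fit was also run on simulated counts, in which far fewer genes changed than were called here and none changed with time in IgG. How it performs when as many genes change as here was not tested.

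The 54 genes and all lists were chosen with earlier results of these data known. Values in every library are given for HSF1 and HSF2, for genes called with a log2 change of 0.58 or more in size, for the 5 genes lowest in p for the contrast between times, and for the most abundant gene of each group; of each other list, up to 4 called genes, lowest in adjusted p, are named for each time. FKBP4, and HSPA1A as the near copy of HSPA1B, were added to these after their values were seen. Gene positions and exon overlaps are from GENCODE 44 (GRCh38) and promoter windows from RefSeq (GRCh38.p14).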

Additional observations from a re-analysis of the deposited data

Results flagged for a closer look

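For 11 of the 54 genes the response to anti-M8nAb differed between 24 h and 12 h in the test of that difference (log2 fold change at 24 h minus that at 12 h, edgeR). The response moved up in 8: HSPB8 by 1.085 (adjusted p = 2.47e-05), DNAJB5 by 0.5668 (adjusted p = 0.000293), HSPA1B by 0.4527 (adjusted p = 0.0172), DNAJB2 by 0.414 (adjusted p = 0.0409), HSPH1 by 0.3327 (adjusted p = 0.00212), AHSA1 by 0.3106 (adjusted p = 0.00571), CHORDC1 by 0.2754 (adjusted p = 0.0366) and HSPA8 by 0.2112 (adjusted p = 0.00992). It moved down in 3, with a difference of -0.9086 (adjusted p = 4.04e-08) in BAG5, -0.5 (adjusted p = 0.0474) in PFDN5 and -0.3873 (adjusted p = 0.0275) in HSPA14. HSPB8, DNAJB5, BAG5 and HSPH1 kept this call whichever library was left out. The call of AHSA1 was lost without IgG 12 h replicate 1 (adjusted p = 0.0931). HSPA8 and HSPA1B lost it in 5 of the 8 such fits each, HSPA14, CHORDC1 and PFDN5 in 7 each, and DNAJB2 in all 8.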

How the results depend on the processing

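No gene that was called in the main comparison changed its direction under any alternative. Of the calls, 6 of 20 at 12 h, 16 of 28 at 24 h and 2 of 11 for the difference between the times (HSPB8 and BAG5) passed under every other fit tried (another test, scaling, filter, block or gene set, each time alone, or 1 library left out). With a log2 fold change of at least 1 required as well, edgeR called 0 up and 0 down at 12 h (8 and 17 at an unadjusted p under 0.05 at any fold, 0 and 0 by DESeq2 at this fold) and 1 up and 0 down at 24 h. With limma on log2(FPKM + 1), log2(FPKM + 0.1), and log2(FPKM + 1) without a filter, 2, 2 and 0 genes were higher at 12 h and 7, 7 and 6 at 24 h. In the same order 3, 2 and 1 had a response further up at 24 h, 1 had one further down without the filter, and 4, 4 and 2 were lower with time in IgG. The difference gave 5 up and 1 down with DESeq2, 4 up and 1 down without the count filter, and 5 down with protein-coding genes alone, where 3 genes were higher with time in IgG. Leaving out each library in turn gave 2 to 8 higher and 8 to 15 lower genes at 12 h, 11 to 15 and 11 to 13 at 24 h, 3 to 7 and 1 to 3 for the difference, and 1 to 1 and 5 to 12 with time in IgG. The cause of these changes was not tested, beyond the fewer libraries in each fit. Over all genes the median log2 fold change on the FPKM scale was -0.04 at 12 h and -0.07 at 24 h with a pseudocount of 1.

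The groups share replicate numbers, and deviations of same-numbered libraries correlated by -0.037 to 0.027 over the genes tested. A shared effect on few genes would not show in these values. They therefore do not settle whether equal numbers mark a shared culture or batch, which the labels do not state. With the replicate block, 6 genes rose and 14 fell at 12 h, 15 and 13 at 24 h, 8 and 2 for the difference and 1 and 11 with time in IgG. At 24 h the block lost HSF1 (adjusted p = 0.0531) and gained HSPH1 (0.13, adjusted p = 0.0487), and it lost PFDN5 in the difference (adjusted p = 0.0533) and CCT6A with time in IgG (adjusted p = 0.054).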
